A study of Rattus norvegicus with 6 samples.

Results

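The genes described here are 10 regulators of the 2 main sensing systems for reactive and foreign chemicals: Nfe2l2, Keap1, Maff, Mafg, Bach1 and Sqstm1 of the NRF2 system, and Ahr, Arnt, Ahrr and Tiparp of the aryl hydrocarbon receptor system. They were chosen by name as the sensors and factors themselves, without their targets, among the 15645 genes that the array's probes could be matched to. Of the 10 genes, 9 had a probe whose accession matched a transcript of the gene, with 19 probes in all; no probe was matched to Tiparp, which was not analysed here. One array was run on the renal cortex of each of 6 male Sprague-Dawley (Crl:CD(SD)) rats, bought at 5 weeks of age. The 3 treated rats received 4-hydroxy-m-phenylenediammonium dichloride, a salt of an aromatic diamine with a phenol group that oxidises readily, at 100 mg/kg/day for 4 weeks, in a vehicle the labels do not name. The 3 control rats received corn oil over the same 4 weeks. The comparison asked whether the mRNA of the regulators differed between treated and control cortex.

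NRF2, encoded by Nfe2l2, is the transcription factor that switches on antioxidant and conjugating enzymes. In resting cells KEAP1 binds NRF2 and hands it to a CUL3 ubiquitin ligase for degradation, and electrophiles that react with KEAP1 cysteines let NRF2 escape, so that its activity is set largely at the level of the protein. Free NRF2 pairs with a small MAF protein on the antioxidant response element, a site that BACH1 otherwise occupies as a repressor, and p62, encoded by Sqstm1, competes for KEAP1. The aryl hydrocarbon receptor, encoded by Ahr, binds planar aromatic compounds, pairs with ARNT and acts on the xenobiotic response element. AHRR, a repressor that competes for ARNT, and TIPARP, an ADP-ribosyltransferase that curbs the receptor, are themselves induced by it in feedback.

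Several of these regulators are known targets of their own systems, so their promoters were read for the sites of both. RefSeq promoter windows of assembly GRCr8, 300 bases around the gene's start and mostly before it, were found for all 10 genes. The core of the antioxidant response element, TGACNNNGC on either strand, occurred in 2 of the 10 windows, those of Nfe2l2 and Arnt, and in 14.4% of the 10407 windows of genes tested on these arrays. The core of the xenobiotic response element, GCGTG on either strand, occurred in 7 of the 10 windows and in 45.8% of those of the genes tested; the median GC content was 65.7% in the 10 windows and 59.7% over the windows of all genes tested. A match in letters is a description of the window and not a binding site. The windows of Nfe2l2 and Keap1 are shown because these 2 genes had the smallest p-values among the regulators, and that of Ahrr because it is a textbook target of the receptor; they were picked after the values were seen. Each is given 5′ to 3′ on the strand of its gene, with matches to either core in capitals; in Nfe2l2 the capitals mark the antioxidant core, and in Keap1 (3 matches, all on the opposite strand) and Ahrr (3 matches) the xenobiotic core.
Nfe2l2, chr3:81028950-81029249, minus strand: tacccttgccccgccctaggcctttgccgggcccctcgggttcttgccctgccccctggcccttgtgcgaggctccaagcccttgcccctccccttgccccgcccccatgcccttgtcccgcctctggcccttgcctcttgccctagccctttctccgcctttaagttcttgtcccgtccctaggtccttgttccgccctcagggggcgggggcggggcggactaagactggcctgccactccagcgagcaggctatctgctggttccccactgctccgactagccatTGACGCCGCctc
Keap1, chr8:28053993-28054292, minus strand: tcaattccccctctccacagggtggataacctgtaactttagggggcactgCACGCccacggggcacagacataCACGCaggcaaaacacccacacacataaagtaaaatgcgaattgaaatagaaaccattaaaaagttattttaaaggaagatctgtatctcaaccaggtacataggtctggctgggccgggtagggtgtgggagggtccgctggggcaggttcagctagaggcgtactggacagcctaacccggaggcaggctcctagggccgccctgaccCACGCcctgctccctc
Ahrr, chr1:30821969-30822268, plus strand: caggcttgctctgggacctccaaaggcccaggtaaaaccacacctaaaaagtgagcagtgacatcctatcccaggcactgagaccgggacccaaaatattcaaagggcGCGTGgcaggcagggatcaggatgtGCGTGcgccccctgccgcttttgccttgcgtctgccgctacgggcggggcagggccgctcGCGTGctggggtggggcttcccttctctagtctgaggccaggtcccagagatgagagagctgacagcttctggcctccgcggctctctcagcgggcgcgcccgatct

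On the arrays, 68.9% to 69.6% of the 61537 non-control probes were well above background for treated rats and 63.1% to 67.7% for control rats. All treated arrays lay on slide 2 and all control arrays on slide 1, scanned separately, so an effect of slide or scan cannot be told apart from treatment. The 8 spike-in transcripts, added in equal amounts by design, were scaled like the genes to the 75th percentile of each array's non-control probes. Their log2 differences of treated minus control ran from -0.19 to -0.07, with a median of -0.14. They depend on the sample RNA as well as on the array. The part of such an offset in the values of the regulators was not tested. All 8 markers of the proximal tubule that were looked at, among them Slc34a1 and Lrp2, were well above background on all 6 arrays. All 8 had lower means in treated cortex, with a median log2 fold change of -0.10, where 6848 of all 12130 genes tested had lower means. Of the 8 markers, the water channel gene Aqp1 alone passed an adjusted p of 0.05 (log2 fold change -0.58, limma adjusted p = 0.034), where 1.33% of all genes passed as lower. The summed linear level of the 8 markers, relative to the array's 75th percentile, was 1215 to 1256 in treated and 1267 to 1407 in control cortex. Of 8 markers of the distal tubule and collecting duct, 5 had lower means and 3 higher, with a median of -0.14. Of 6 glomerular and endothelial markers, 3 had lower means and 3 higher, with a median of -0.05. Levels below are log2 of a probe's signal relative to the 75th percentile of its array, and they compare animals for 1 probe, never probes with each other. In bulk tissue, fewer cells of a type and less RNA per cell cannot be told apart.

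None of the 9 measured regulators differed between treated and control cortex past the threshold, an adjusted p under 0.05 over all 12130 genes tested with limma, which 4.38% of all genes passed. Their adjusted p ran from 0.151 to 0.999. At an unadjusted p under 0.05 there were 2 regulators, Keap1 and Nfe2l2, both lower in treated cortex, where 25.0% of all genes passed in either direction and 13.2% as lower. The groups did not overlap for 3 of the 9, Maff as higher and Nfe2l2 and Keap1 as lower, beside 32.8% of all genes without overlap, 14.1% as higher and 18.7% as lower. The regulators' median log2 fold change was 0.07, against -0.03 over all genes, and the median of its size without sign was 0.16 against 0.14. The 95% intervals of the fold change lay within 2-fold in either direction for 8 of the 9, all but Ahrr, and within 1.5-fold for 6 of the 9, all but Maff, Ahr and Ahrr. These data therefore bound the difference between the groups at the brightest probe of most regulators, without showing that it was 0.

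**Figure D1:**
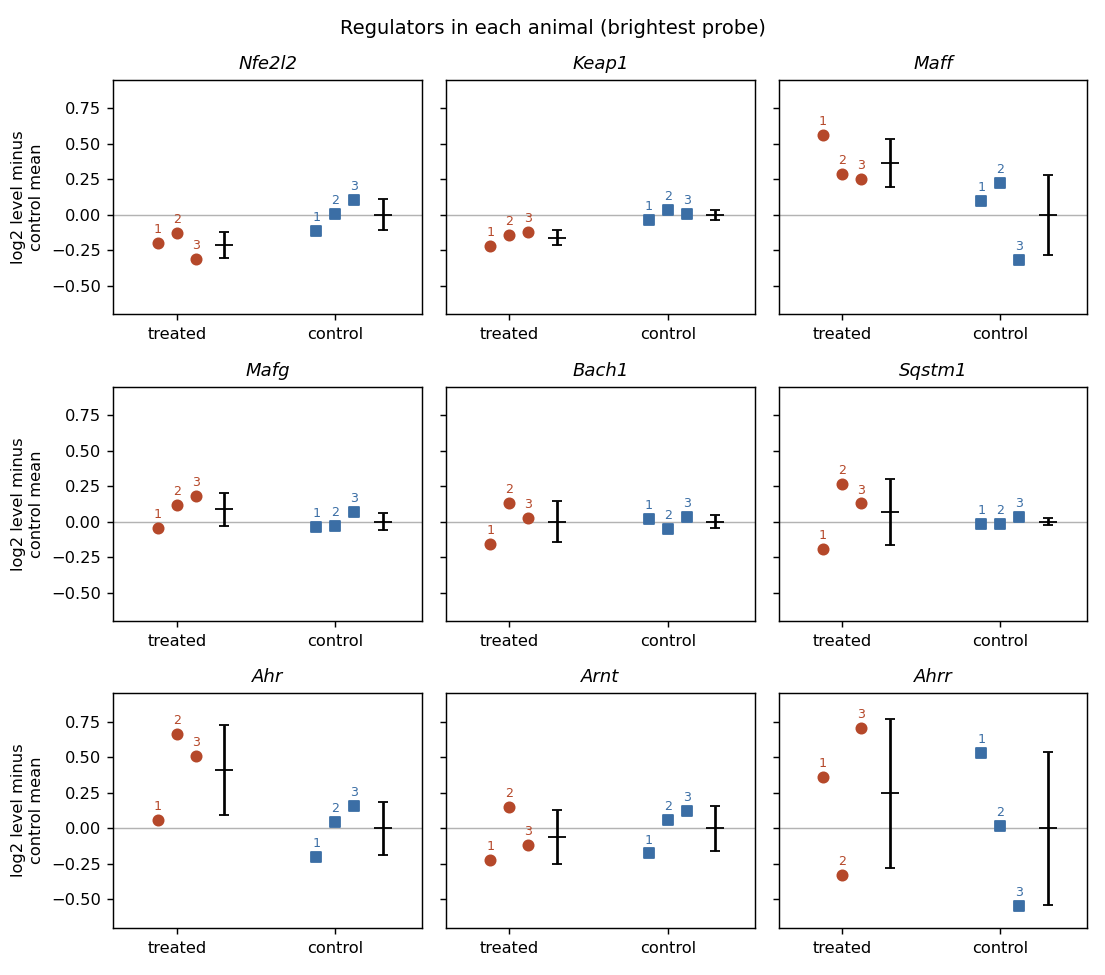
Log2 level of the brightest probe of each of the 9 measured regulators in each animal, with the mean of the 3 control animals set to 0; red circles are treated and blue squares control animals, numbered by replicate, and the bars show the mean and SD of each group (n = 3). Treated and control points separate for Nfe2l2, Keap1 and Maff only, and Ahrr varies as widely within groups as between them.

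Nfe2l2, the gene of NRF2 itself, did not pass at either of its 2 probes, both with means below the controls, and the groups separated at 1 of them. At the brighter probe the log2 level was 3.75, 3.82 and 3.64 in treated rats, against 3.84, 3.96 and 4.05 in control rats. The highest treated animal lay just under the lowest control animal. The log2 fold change was -0.21 (SE 0.08, 95% interval -0.42 to -0.01), a 1.16-fold lower mean, with an adjusted p of 0.188. At the other probe the levels were 3.08, 3.05 and 2.95 in treated rats and 2.95, 3.00 and 3.18 in control rats, and the groups overlapped fully, with a fold change of -0.01 on the log2 scale (SE 0.08, adjusted p = 0.947 over the 40988 probes of the probe fit). Averaging the probes gave -0.11, so the size of the difference depended on the probe.

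Keap1, the sensor that holds NRF2 back, had the smallest p of the regulators. Its single probe read 0.40, 0.48 and 0.50 in treated rats, against 0.59, 0.66 and 0.63 in control rats. Every treated animal was below every control animal, and the spread within each group was small (treated 0.46 ± 0.05, control 0.62 ± 0.03; SD, n = 3 each). The log2 fold change was -0.16 (SE 0.06, 95% interval -0.30 to -0.02), a 1.12-fold lower mean, and it did not pass (limma adjusted p = 0.151). With a normexp background it was -0.24 and passed narrowly (limma adjusted p = 0.0489). In that setting 496 of all 12130 genes passed as lower, against 161 without it. The value of -0.16 was close to the spike-in median of -0.14, while the median over all genes was -0.03. Whether any such offset has a part in the value of Keap1 was not tested. The difference between the changes of Nfe2l2 and Keap1 within each array was 0.02, 0.02 and -0.19 in treated rats and -0.08, -0.02 and 0.10 in control rats (exact permutation p = 0.7, two-sided). With 3 against 3 animals that test cannot give a p below 0.1, here or for the other pairs of regulators.

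The genes whose levels over the 6 arrays, centred on their mean, lay closest to those of Keap1 were Znhit2, Macf1 and Polr2b, with root mean square differences of 0.012, 0.018 and 0.018 log2 units, where the median over all genes was 0.15. Macf1 encodes a cytoskeletal linker protein and Polr2b a core subunit of RNA polymerase II. Their log2 fold changes of -0.15, -0.15 and -0.16 did not pass either (limma adjusted p = 0.157, 0.177 and 0.147). That follows from their choice by likeness to Keap1 on the same 6 arrays and is no separate result.

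The small MAF genes, which supply the partner of NRF2 on DNA, had means above the controls at every kept probe. Maff read -3.86, -4.13 and -4.16 in treated rats, against -4.32, -4.20 and -4.73 in control rats. All treated animals were above all control animals, but by a gap smaller than the spread within either group. The log2 fold change of 0.37 (SE 0.16, 95% interval -0.04 to 0.77) did not pass (adjusted p = 0.238), and it was 0.00012 with a normexp background. The spots of that probe were only 1.69 to 2.37 times as bright as the local background, and the second Maff probe was not well above background on any array. Mafg was far above background (41.3 to 73.3 times over its 3 probes) and gave log2 fold changes of 0.09, 0.11 and 0.07, with adjusted p of 0.559, 0.321 and 0.597 in the probe fit. At the second brightest of them the levels were 1.59, 1.66 and 1.70 in treated rats and 1.53, 1.51 and 1.58 in control rats, without overlap.

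Bach1, the repressor of the same sites, had group means that were equal to 2 decimals at its brightest probe, -1.70 ± 0.14 in treated and -1.70 ± 0.04 in control cortex (SD, n = 3 each). Its log2 fold change was -0.00020 (SE 0.09), and the 95% interval of -0.21 to 0.21 bounds the difference between the groups at this probe at 1.16-fold in either direction. The dimmer Bach1 probes gave -0.15 and 0.10, on either side of 0, with wider 95% intervals of -0.49 to 0.20 and -0.29 to 0.49. Relative to Bach1 within each array, the change of Nfe2l2 was -0.21 and that of Mafg 0.09 (exact permutation p = 0.2 and 0.3).

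Sqstm1, which encodes the autophagy receptor p62 and is itself a target of NRF2, differed more among the treated animals than among the controls. Its brightest probe read 4.44, 4.89 and 4.76 in treated rats, against 4.61, 4.61 and 4.66 in control rats. Treated replicate 1 lay below all controls and replicates 2 and 3 above them. The SD was 0.23 in treated and 0.03 in control cortex (n = 3 each). Its 5 probes carry accessions of 2 RefSeq transcripts. The other 4 probes showed the same order of the treated animals, with replicate 1 lowest and replicate 2 highest, and treated SDs of 0.23 to 0.29 against control SDs of 0.04 to 0.06; probes of 1 gene share their RNA and are not replicates. All 5 probes had means above the controls, with log2 fold changes of 0.07 to 0.23, and none passed (adjusted p from 0.388 to 0.780 in the probe fit). The brightest probe's value turned to -0.03 without treated replicate 2.

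**Figure D2:**
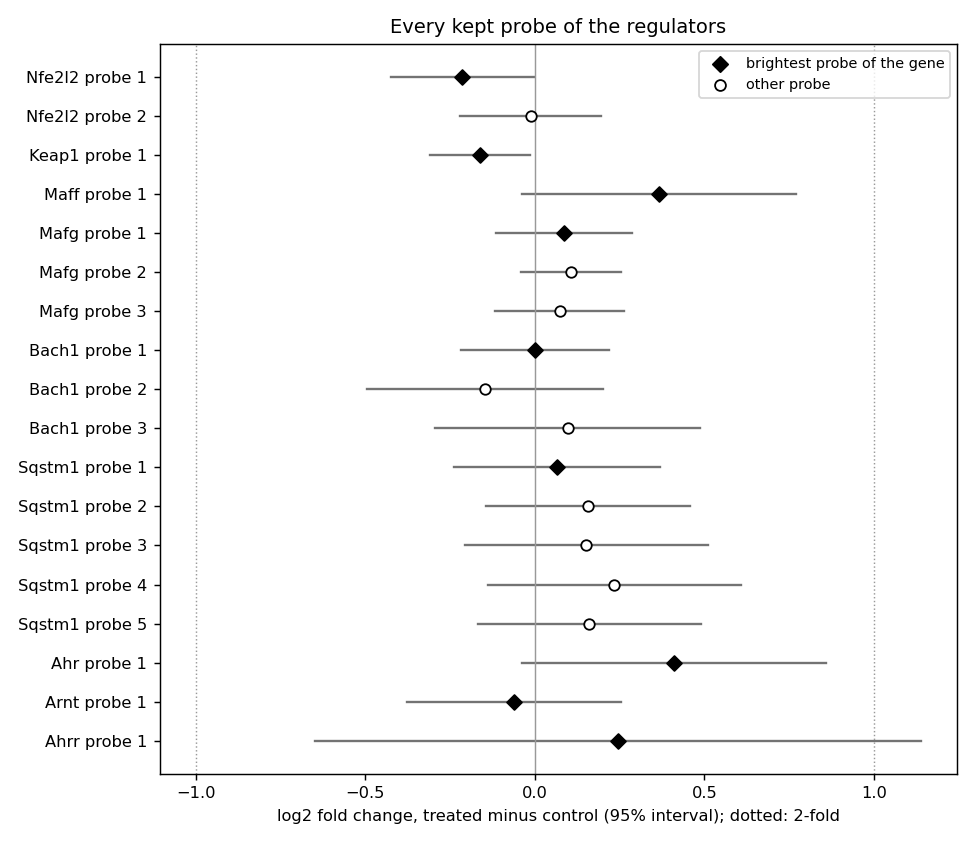
Log2 fold change, treated minus control, of each of the 18 kept probes of the regulators with its 95% interval from the limma fit over all kept probes; diamonds are the brightest probe of a gene, circles its other probes, and dotted lines mark a 2-fold change. Of the 18 probes 12 have means above and 6 below the controls, the interval of the first Nfe2l2 probe and of Keap1 ends just under 0, and Ahrr has the widest interval. Among the 12 are 5 probes of Sqstm1 and 3 of Mafg, and probes of 1 gene share their RNA. By brightest probe, 5 regulators have means above and 4 below the controls, where 43.5% of all genes tested are above.

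Over the 18 kept probes, taken 1 by 1 in a limma fit of all 40988 kept probes, 0 passed, where 6.72% of all kept probes did. At an unadjusted p under 0.05 there were again 2 of the 18, the brighter Nfe2l2 probe (0.0482) and Keap1 (0.0364), both lower, where 25.5% of all kept probes passed in either direction and 11.7% as lower. The groups did not overlap at 4 of the 18, 2 as higher (Maff and 1 probe of Mafg) and 2 as lower, where 33.3% of all kept probes did not overlap.

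Of the receptor's own genes, Ahr had the largest log2 fold change of the regulators. Ahr read -4.26, -3.66 and -3.81 in treated rats, against -4.52, -4.27 and -4.17 in control rats. Treated replicates 2 and 3 were above all controls, while replicate 1 lay among them. The log2 fold change was 0.41 (SE 0.18, 95% interval -0.04 to 0.86), a 1.33-fold higher mean that did not pass (adjusted p = 0.234). The probe is dim, with spots 1.69 to 2.69 times as bright as the local background, and the value was 0.23 with a normexp background and 0.28 without treated replicate 2.

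Arnt, the partner of AHR and also of the hypoxia-inducible factors, read -4.35, -3.98 and -4.24 in treated rats and -4.31, -4.07 and -4.01 in control rats, and the groups overlapped (log2 fold change -0.06, SE 0.13, adjusted p = 0.799). Within each array the change of Ahr relative to that of Arnt was 0.28, 0.51 and 0.63 in treated rats, against -0.03, -0.01 and 0.04 in control rats, a difference of 0.47. The groups did not overlap, and the exact permutation p was 0.1, the smallest possible; over the 5 pairs of regulators compared in this way the adjusted p was 0.5. The Arnt probe is as dim as that of Ahr, with spots 1.65 to 2.51 times as bright as the local background. With a normexp background the difference between the 2 was 0.31.

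Ahrr, the feedback repressor, varied most. It read -1.04, -1.72 and -0.69 in treated rats, against -0.87, -1.38 and -1.94 in control rats, so each group spanned about the same range (SD 0.53 and 0.54, n = 3 each). The log2 fold change of 0.25 had an SE of 0.36, and its 95% interval of -0.65 to 1.15 spans means from 1.57-fold lower to 2.21-fold higher. Relative to Ahrr within each array, Ahr changed by 0.16 (exact permutation p = 0.8).

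The other genes of the NRF2 machinery were taken as a list of 21 partners, of which 18 were tested. Higher levels passed for 2 of these and lower levels for 0, leaving 16 that did not pass, where 3.05% of all genes were higher. Limma's unadjusted p was under 0.05 for 3 as higher and for 0 as lower, beside 11.8% and 13.2% of all genes. The median log2 fold change was 0.07. Cul3 and Rbx1, the scaffold and RING subunits of the ligase that KEAP1 feeds, differed by 0.08 (adjusted p = 0.420) and by -0.07 log2 units (adjusted p = 0.496), and Mafk, the third small MAF gene, by 0.09 (adjusted p = 0.503).

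Amer1, a scaffold protein gene of the Wnt pathway whose product also binds KEAP1, was 1 of the 2. It read 0.83, 0.81 and 0.59 in treated rats, against -0.16, -0.43 and -0.40 in control rats, with no overlap, a 2.11-fold rise (log2 fold change 1.08, SE 0.10, adjusted p = 0.020); its other probe was not well above background on any array. Nfe2, the p45 subunit of the erythroid factor NF-E2 and a relative of NRF2 that also pairs with small MAFs, was the other. It read -4.30, -3.57 and -4.06 in treated rats, against -5.00, -5.43 and -5.72 in control rats, of which 2 were well above background. With control replicate 3, which was not above background, at its measured value, the log2 fold change was 1.41 (SE 0.25, adjusted p = 0.0445), and the call was lost with a normexp background, where the log2 fold change was 0.42 (adjusted p = 0.074), and, with adjusted p of 0.054 to 0.085, under median or quantile scaling, probe means or no filter.

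Of 11 red cell genes listed, 7 were tested, of which 1 passed as higher and 6 did not pass. All 7 had higher means in treated cortex, where 43.5% of all genes did. Of the 7, 6 were higher without overlap, where 14.1% of all genes were. Of 10 leukocyte genes listed, 9 were tested, of which 5 had higher and 4 lower means. Without overlap, 0 of those 9 were higher and 1 lower. Gata1, an erythroid transcription factor, was at least 1.1-fold higher against 3 control arrays on which it was not well above background. It was kept through the treated arrays alone, and limma's adjusted p of 0.039 took the control arrays at their measured values. Hbb, the beta globin gene, had a log2 fold change of 0.80 (adjusted p = 0.066). The summed linear level of the 7 was 658 to 1017 in treated and 428 to 562 in control cortex, and Rhag was not well above background on any array. The part of red cells in the value of Nfe2 was not tested. Neither of the 2 calls held in any fit that left out 1 of the 6 arrays, where limma's adjusted p was 0.0501 to 0.072 for Amer1 and 0.060 to 0.118 for Nfe2. In those fits 0 to 48 of all 12130 genes passed as higher, against 370 with all 6 arrays.

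Of 17 partners of AHR and ARNT, 13 were tested and 0 passed, where 4.38% of all genes did. Limma's unadjusted p was under 0.05 for 2 as higher and 2 as lower, beside 11.8% and 13.2% of all genes. The median log2 fold change was 0.00048. Ptges3, which encodes the p23 co-chaperone of the resting receptor, had a log2 fold change of -0.0017 (adjusted p = 0.989). Sim1, a transcription factor that pairs with ARNT proteins, and Nrip1, a nuclear receptor corepressor that also binds AHR, had the smallest p; Sim1 differed by 0.34 log2 units (adjusted p = 0.065) and Nrip1 by -0.37 (adjusted p = 0.084). Their other probes were uneven: 2 further probes of Sim1 gave -0.19 and -0.25, and 3 of Nrip1 gave -0.45, 0.00 and -0.12, of which the first passed in the probe fit (adjusted p = 0.0181).

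**Figure D3:**
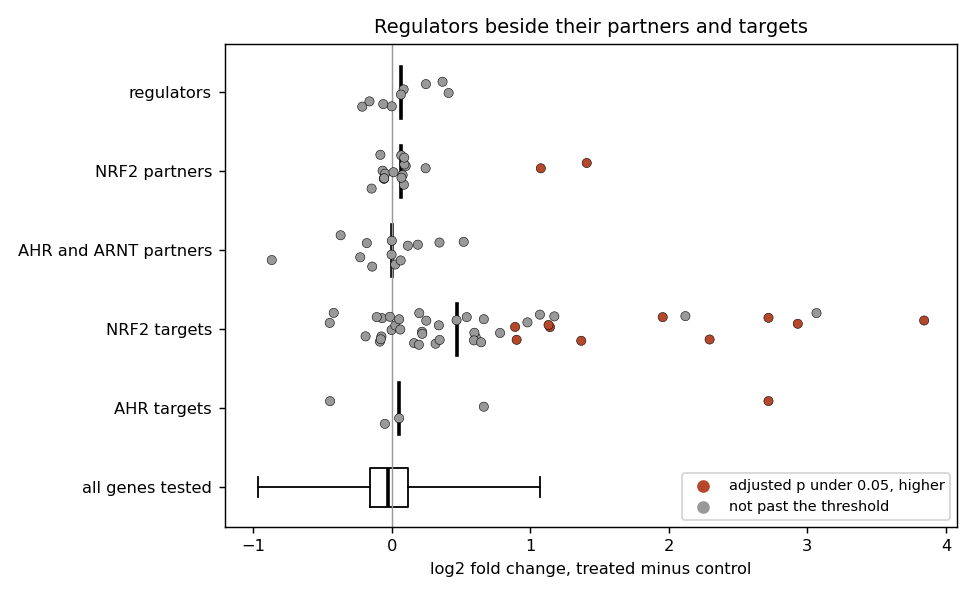
Log2 fold change, treated minus control, of each tested gene of the regulators, their partners and their targets (points, with the median as a black bar; red points passed an adjusted p of 0.05 as higher), beside all 12130 genes (box of the quartiles with whiskers at the 1st and 99th percentiles). None of the 9 regulators is red, while 2 of 18 NRF2 partners and 10 of 45 NRF2 targets are; the spread of points up and down within a list carries no value.

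The regulators are set here beside the genes they control. Of 46 NRF2 targets, 45 were tested, of which 10 passed as higher (3.05% of all genes did), 0 as lower and 35 not at all. Limma's unadjusted p was under 0.05 for 25 as higher (11.8% of all genes) and 0 as lower, and the median log2 fold change was 0.47. Of the 25, Gclm and Slc7a11 were kept through the treated arrays alone. Over probes above background on all arrays the list's median was 0.35. The list's mean change relative to the control mean was 0.57, 0.83 and 0.82 in treated rats, against -0.10, 0.10 and 0.00 in control rats. The glutathione S-transferase genes Gstm1 and Gstp1 were 14.3-fold and 4.90-fold higher (adjusted p = 0.014 for Gstm1 and 0.015 for Gstp1), Nqo1, a quinone reductase, 6.58-fold (adjusted p = 0.031), Pir, the pirin gene, 3.88-fold (adjusted p = 0.021) and Ephx1, an epoxide hydrolase, 2.58-fold (adjusted p = 0.0449). Gclm, the modifier subunit of glutamate-cysteine ligase, was at least 2.81-fold higher against control arrays on which it was not well above background. It was kept through the treated arrays alone, and limma's adjusted p of 0.037 took the control arrays at their measured values.

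The 10 calls fell to 0 without treated replicate 2 or 3 or without control replicate 1 or 3, to 2 without control replicate 2 and to 7 without treated replicate 1, while the list's median stayed between 0.36 and 0.54. Over all 12130 genes, the 370 higher calls also fell to 0 in the fits where the list had 0. They fell to 48 without control replicate 2 and to 44 without treated replicate 1. Hmox1, a target repressed by BACH1, read -0.58, 2.81 and 0.67 in treated rats, against -1.63, -1.33 and -0.50 in control rats, and did not pass (log2 fold change 2.12, adjusted p = 0.206).

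Of 10 AHR targets, 5 were tested, and 1 passed as higher, where 3.05% of all genes did. It was Nqo1, which is also an NRF2 target. Limma's unadjusted p was under 0.05 for 2 as higher and 1 as lower, beside 11.8% and 13.2% of all genes. The other 5 were not well above background on any of the 6 arrays; among them were Cyp1a1, Cyp1a2 and Cyp1b1, the cytochrome P450 genes that mark activity of the receptor. Cyp1a1 read -7.94, -7.89 and -7.84 in treated rats, against -7.46, -7.72 and -6.97 in control rats. Each value lay below the lowest signal well above background on its array, so the order of the groups was not read as a difference. The list's median log2 fold change was 0.05.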

How the data were processed

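Renal cortex RNA of 6 rats was labelled with Cy3 and hybridised to 1-colour arrays, 1 per animal, per the labels' protocols. The deposited intensity is a background-subtracted and detrended signal from Agilent Feature Extraction 10.7.1.1, per the file headers (10.7 per the submitters' processing notes), on a design tied to build rn4. The deposited value table is on a linear ratio scale, since each column was 0.998 times the array's signal over its own 75th percentile at values of 1 or more (column medians 0.108 to 0.110 for treated and 0.105 to 0.109 for control arrays). The sources used here do not state that step.

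Levels were log2 signals minus the 75th percentile over 61537 non-control probes (930 to 1001 on treated and 837 to 976 on control arrays). Spots flagged as outliers, 1 to 3 per array, were missing values, and none was saturated. Accessions without versions were matched to the RefSeq gene table of GRCr8, which gave names to 28206 probes (15645 genes) and none to 33331. A probe was kept if all 3 arrays of either group had it well above background, and the brightest represented its gene. The 12130 genes, and separately all 40988 kept probes, were compared with limma 3.58.1 in R 4.3.3, with Benjamini-Hochberg adjustment; intervals use the moderated standard errors. A fold against a group below background is a lower bound, with that group raised to the lowest signal well above background on each array. Changes of 2 regulators were compared by exact two-sided permutation over animals. The number of arrays limits precision. The fit was tested on simulated data.

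The regulators and lists were chosen with earlier results of these data known. Named genes are all 10 regulators, up to 6 called genes of each list by size of change or otherwise the 2 of smallest p, Nqo1, Hmox1, Gclm and Cyp1a1, and the 3 profiles nearest to the regulator of smallest p; Cul3, Rbx1, Mafk, Ptges3 and the markers were added after their values were seen. Alternatives were a normexp background (offset 50, on median signals because no mean signal is in the files), median and quantile scaling, other filters, the value table, a replicate block, an intensity trend, probe means, a 2-fold minimum, and the omission of each array in turn. Protein sequences of NRF2, p62 and the small MAFs had been planned and are not shown. Same-numbered animals did not deviate together (correlations of deviations -0.12, -0.11 and 0.09), so the numbers were not taken as pairs.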

Additional observations from a re-analysis of the deposited data

How the results depend on the processing

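No regulator passed in any alternative except Keap1 with a normexp background (log2 fold change -0.24, adjusted p = 0.0489), which made 1 regulator called lower. Bach1 changed sign with the deposited value table (3.9e-05) and ran from -0.064 to 0.077 when 1 array was left out; Sqstm1 ran from -0.032 to 0.19, Arnt from -0.17 to 0.017, Ahrr from -0.027 to 0.53, Nfe2l2 from -0.27 to -0.16, Keap1 from -0.18 to -0.13, Maff from 0.21 to 0.48, Mafg from 0.04 to 0.15 and Ahr from 0.28 to 0.59. Nfe2l2 minus Keap1 was 0.049 with probe means and -0.090 to 0.019 with 1 array left out, and Ahr minus Ahrr -0.25 to 0.51. Sim1 was -0.031 with probe means. The causes were not tested.

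All genes called higher numbered 370, and 37 without a filter, 229 with probe means, 47 at 2-fold and 0 to 48 with 1 array left out; those called lower numbered 161, and 496 with normexp, 7 without a filter, 395 with an intensity trend, 63 with probe means, 9 at 2-fold and 0 to 6 with 1 array left out. Of the calls 69.7% were higher, against 47.5% with normexp and 52.8% with the trend. The replicate block, whose numbers are only shared labels, gave 0 calls of either kind, and 0 NRF2 targets, NRF2 partners and AHR targets called. Because each number occurs in both groups, the block leaves the log2 fold changes of the regulators as they were, so their signs could not change. NRF2 targets called higher were 3 without a filter, 16 with the trend and 0 to 7 with 1 array left out, and their median was 0.35 over probes above background on all arrays. NRF2 partners called higher were 1 with normexp, either scaling, no filter, the strict filter or probe means, and 0 with any array left out; their median was -0.0045 with normexp, 0.035 with median scaling, 0.045 with probe means, and 0.0043 to 0.088 with 1 array left out. The median of AHR partners was -0.033 with median scaling, 0.037 with quantile scaling and -0.031 to 0.019 with 1 array left out. AHR targets called higher were 0 without a filter and 0 to 1 with 1 array left out, 1 was lower with normexp, and their median was 0.12 with normexp, -0.048 without a filter and 0.20 with probe means. Slide and scan each held 1 group, which left no fit with either as a block. Signal near background limits Ahr, Arnt and Maff.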
